A study of Mus musculus with 8 samples.

Results

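The genes described here are 38 nuclear genes of mitochondrial fuel oxidation, listed by symbol for their place in these pathways, out of 56748 genes in the deposited count table. The list was drawn up with earlier results of these data known, although no measured value enters the rule. They comprise 18 genes of the tricarboxylic acid (TCA) cycle, 4 genes of pyruvate entry into it, 3 genes of ketone body oxidation and 13 genes of branched-chain amino acid and propionyl-CoA oxidation. Each symbol matched 1 row of the table, and all 38 genes passed the filter on low counts, with 16002 genes passing in all. They were measured by RNA sequencing of polyadenylated RNA from whole hearts. CS7KO hearts came from mice whose Smad7 gene, which encodes an inhibitor of TGF-beta receptor signalling, had been excised in cardiomyocytes by Cre recombinase, expressed from the promoter of alpha myosin heavy chain (alpha MHC), a cardiomyocyte gene. CRE hearts carried that alpha MHC Cre as the control. All animals were mice of 3 to 4 months, of a strain the labels spell C56BL, and all had carried a transverse aortic constriction (TAC), in which a band on the aorta makes the left ventricle pump against raised pressure, for 56 days. No unbanded heart was part of the comparison. There were 4 CS7KO libraries (1 and 2 from hearts labelled male, 3 and 4 from hearts labelled female) and 4 CRE libraries (1 and 2 male, 3 and 5 female), described by the series as independent samples.

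The TCA cycle oxidises acetyl-CoA in the mitochondrial matrix and passes its electrons to the respiratory chain, which makes nearly all the ATP of a beating heart. Acetyl-CoA reaches the cycle from pyruvate through the pyruvate dehydrogenase complex, from fatty acids, from ketone bodies through succinyl-CoA:3-ketoacid CoA transferase, and from branched-chain amino acids through the branched-chain ketoacid dehydrogenase complex. Propionyl-CoA and pyruvate can also refill the cycle by carboxylation.

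Total counts ran from 16679724 to 40181492 in CS7KO libraries and from 16476420 to 29751644 in CRE libraries. Genes of the mitochondrial genome took 20.3%, 22.3%, 20.2% and 24.9% of counts in CS7KO 1 to 4, and 15.04%, 20.3%, 41.1% and 69.8% in CRE 1, 2, 3 and 5. CRE 3 and CRE 5 therefore stood apart from the other libraries by this share, and CRE 1 stood apart in having 537 genes with 1 to 9 counts, against 5848 to 19697 such genes in each of the other 7 libraries. Ribosomal protein genes took 4.22% of counts in CRE 1, against 1.13% to 1.92% in the other 7. Smad7 itself had 19.8, 13.3, 27.8 and 12.3 CPM (counts per 1000000 counts of a library, after scaling) in CS7KO 1 to 4, against 17.6, 25.5, 25.2 and 45.4 CPM in CRE 1, 2, 3 and 5. The groups overlapped, the log2 fold change was -0.59 (SE 0.34, edgeR adjusted p = 0.509), and counts per whole gene do not show which part was excised, so this is no check of the labels.

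Transcripts of the 38 genes were higher in CS7KO than in CRE hearts for 37 genes as point estimates, but no gene passed the test. In edgeR's quasi-likelihood test with a term for labelled sex, 0 of 38 had an adjusted p under 0.05, where 0.0375% of all genes tested passed (6 of 16002). Adjusted p-values of the 38 ran from 0.291 to 0.939. At an unadjusted p under 0.05 there were 6 genes (Pdha1, Ogdh, Bckdha, Dld, Sdhc and Suclg2), each higher in CS7KO, against 6.12% of all genes higher and 12.6% in either direction. DESeq2, another count model, called 2 of the 38, Pdha1 (adjusted p = 0.00588) and Ogdh (adjusted p = 0.0358), both higher, where 2.02% of the genes it adjusted were called higher and 4.1% in either direction. Limma-voom called 0 of 38 and 0.0312% of all genes. The median log2 fold change of the 38 was 0.64, beside 0.029 over all genes tested, and 51.9% of all genes had a fold change above 0. The single gene with a lower point estimate was Sdhb.

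**Figure D1:**
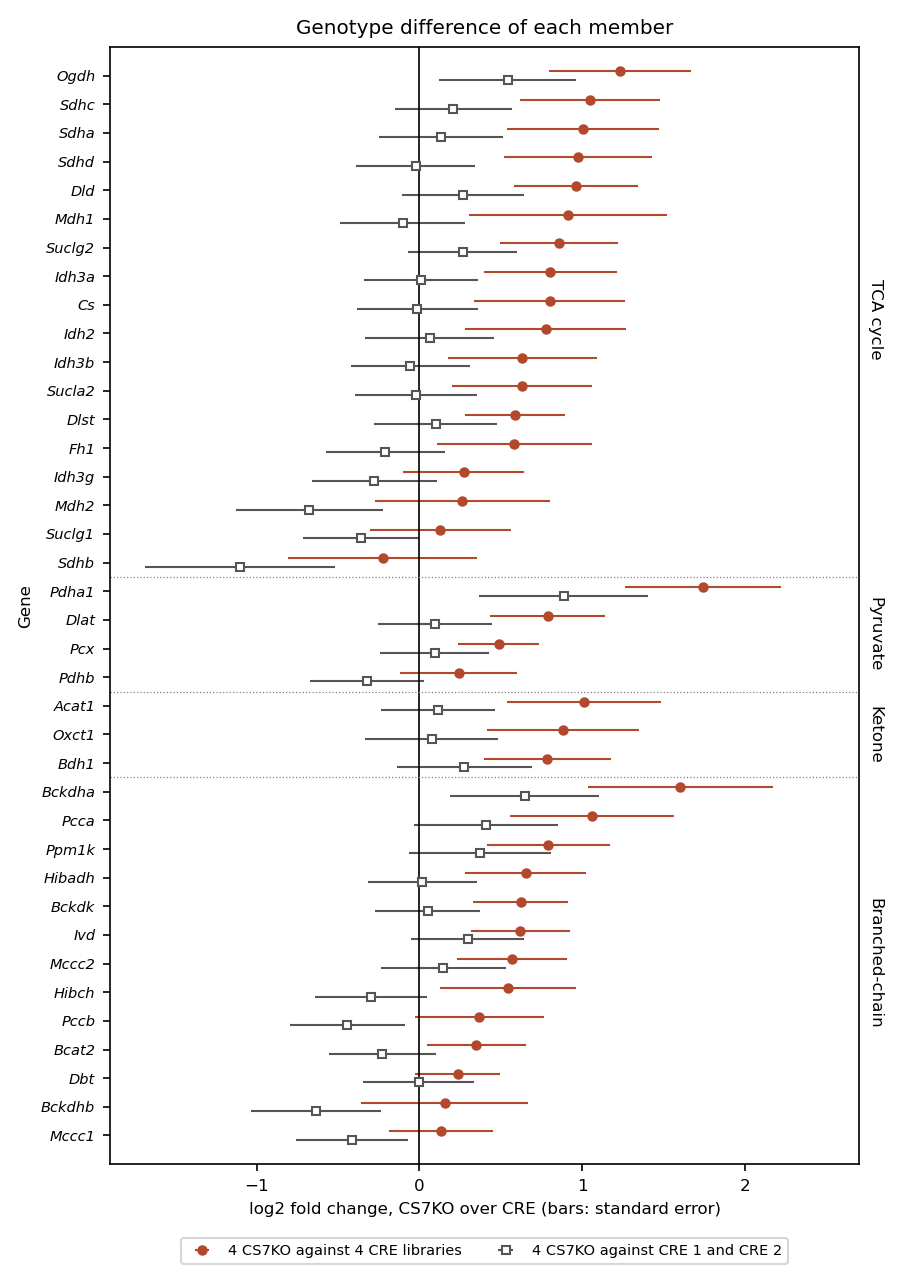
Log2 fold change of each gene, CS7KO over CRE, with its standard error, from all 8 libraries (circles) and without CRE 3 and CRE 5 (squares). With all libraries 37 of 38 circles lie right of 0, and without those 2 libraries 21 squares lie right of 0 and 17 left of it.

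The CRE libraries differed among themselves in these genes. As the median over the 38 genes of log2 CPM relative to the gene's own average across the 8 libraries, CS7KO 1 to 4 stood at 0.30, 0.36, 0.22 and 0.58, against 0.24, 0.35, -0.37 and -1.75 in CRE 1, 2, 3 and 5. CRE 1 and CRE 2 thus lay inside the CS7KO range, CRE 3 below it and CRE 5 far below it. The same median over all genes tested stayed between 0.0084 and 0.086 in CS7KO libraries and between -0.24 and 0.18 in CRE libraries. All 38 genes were lower in CRE 5 than in every CS7KO library, where 39.3% of all genes were, and 32 of 38 were lower in CRE 3, where 26% of all genes were. In CRE 3 the other 6 lay within the CS7KO range (35.1% of all genes) and 0 above it (39% of all genes). In CRE 2, 10 genes lay below all 4 CS7KO libraries (23% of all genes), 25 within their range (61.1%) and 3 above (15.8%). In CRE 1 the numbers were 17 below (48.6% of all genes), 12 within (20.1%) and 9 above (31.3%).

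**Figure D2:**
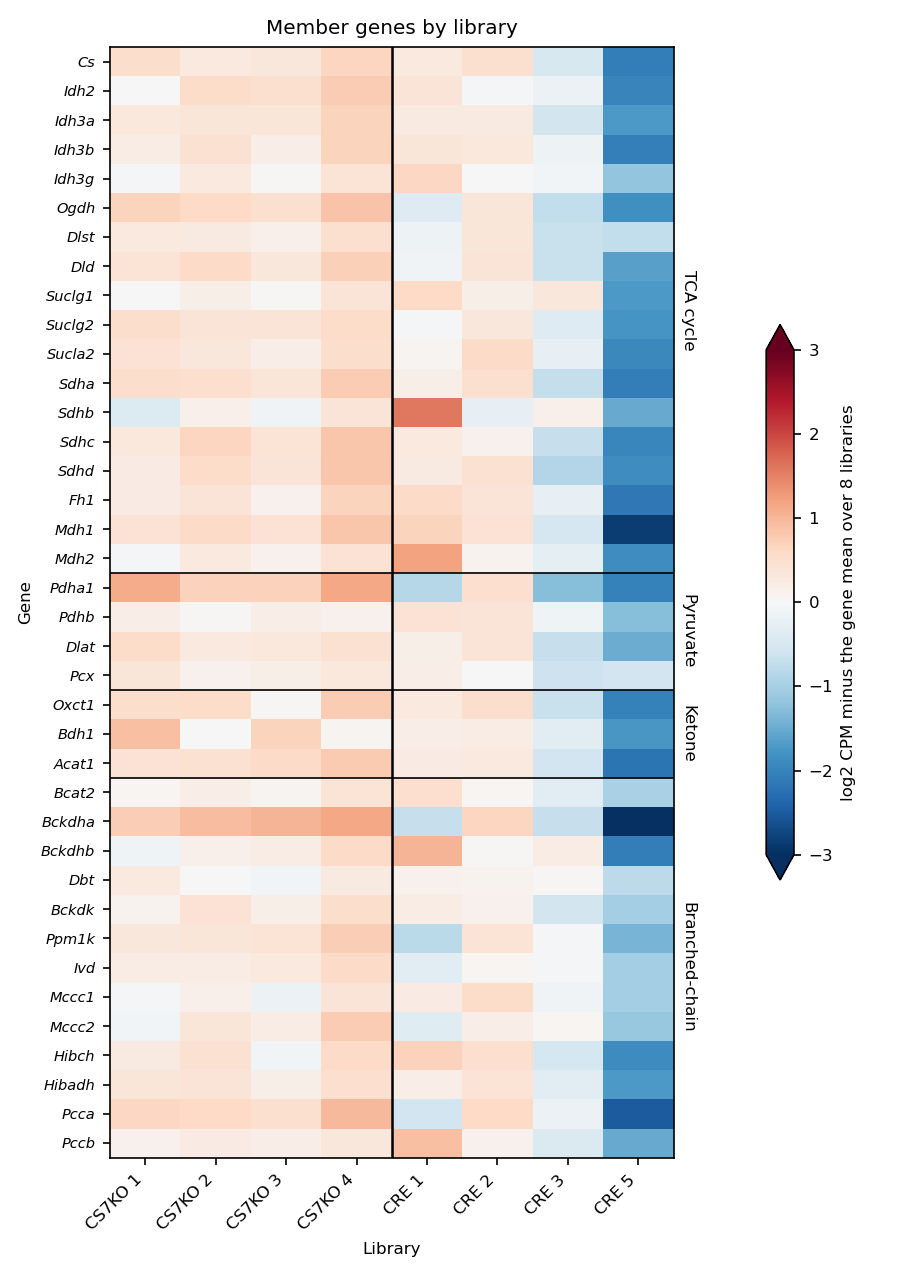
Colour gives log2 CPM minus the gene's mean over the 8 libraries, with genes in rows by role and libraries in columns, CS7KO left of CRE. The column of CRE 5 is the lowest for all genes but Pcx, while CRE 1 and CRE 2 resemble the CS7KO columns for many of them.

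Without CRE 3 and CRE 5, 21 of the 38 genes had a fold change above 0 and 17 below, the median was 0.034 (0.16 over all genes), 0 passed in edgeR and 0 had an unadjusted p under 0.05. This fit kept the term for labelled sex with no female CRE heart left, so it compared CS7KO 1 and 2 with CRE 1 and 2. It is therefore the comparison of male hearts given below (median 0.090) under another scaling, and not a separate check of the 2 libraries. Without CRE 5 alone the median was 0.42 with 32 genes higher, and without CRE 3 alone it was 0.81 with 37 higher. Without CRE 1 it was 0.78 with all 38 higher. Leaving out CRE 5 moved 28 of the 38 estimates by over 1.5 times, and leaving out any other single library moved between 1 and 12. Adjusted p-values stayed above the threshold in each of these fits.

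Other measures of the libraries differed too, some of them in the same libraries as the 38 genes. The summed CPM of 12 cardiomyocyte markers was 54872, 53832, 54467 and 64106 in CS7KO 1 to 4, against 67663, 45630, 35791 and 21623 in CRE 1, 2, 3 and 5. Every one of the 12 was detected in all libraries, and 9 were higher and 3 lower in CS7KO with 0 called by edgeR. The 10 endothelial markers, all detected in every library, summed to 1344, 790, 1307 and 684 CPM in CS7KO 1 to 4 and to 1099, 1090, 2072 and 2516 CPM in CRE 1, 2, 3 and 5, with 1 marker higher and 9 lower in CS7KO and 0 called. CRE 3 and CRE 5 were thus lowest in cardiomyocyte markers and highest in endothelial markers. Adipocyte markers, of which 3 of 7 were tested and 4 of 7 had no count in at least 1 library, summed to 1322, 434, 828 and 358 CPM in CS7KO 1 to 4 and to 1786, 799.8, 3575 and 2919 CPM in CRE 1, 2, 3 and 5. This sum was highest in the same CRE 3 and CRE 5. Of the tested adipocyte markers, however, 2 were higher and 1 lower in CS7KO, so the sum does not describe each marker. The 10 macrophage and monocyte markers, all detected in every library, summed to 505 to 559 CPM in CS7KO libraries and to 1665, 769.6, 416 and 417 CPM in CRE 1, 2, 3 and 5, so that CRE 1 stood apart. Of the macrophage and monocyte markers 1 was higher and 9 lower in CS7KO. The 10 fibroblast markers summed to 2250 to 5720 CPM in CS7KO libraries and to 6449, 5423, 4380 and 1668 CPM in CRE 1, 2, 3 and 5, with 4 higher and 6 lower in CS7KO. In each of these lists 0 markers were called. The part these shifts and the mitochondrial share have in the fold changes was not tested. In whole-heart RNA, fewer cells of a type and less RNA per cell cannot be told apart.

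Per 100 counts of the cardiomyocyte markers, the 38 genes together had 24.1, 26.3, 23.8 and 25.96 counts in CS7KO 1 to 4 and 21.2, 28.2, 22.2 and 13.6 in CRE 1, 2, 3 and 5. On this scale CRE 2 lay above the CS7KO range, CRE 1 and CRE 3 slightly below it and CRE 5 far below it. As a share of counts outside the mitochondrial genome the 38 genes took 1.76%, 2.16%, 1.88% and 2.38% in CS7KO libraries and 1.77%, 2.02%, 1.28% and 0.489% in CRE libraries.

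**Figure D3:**
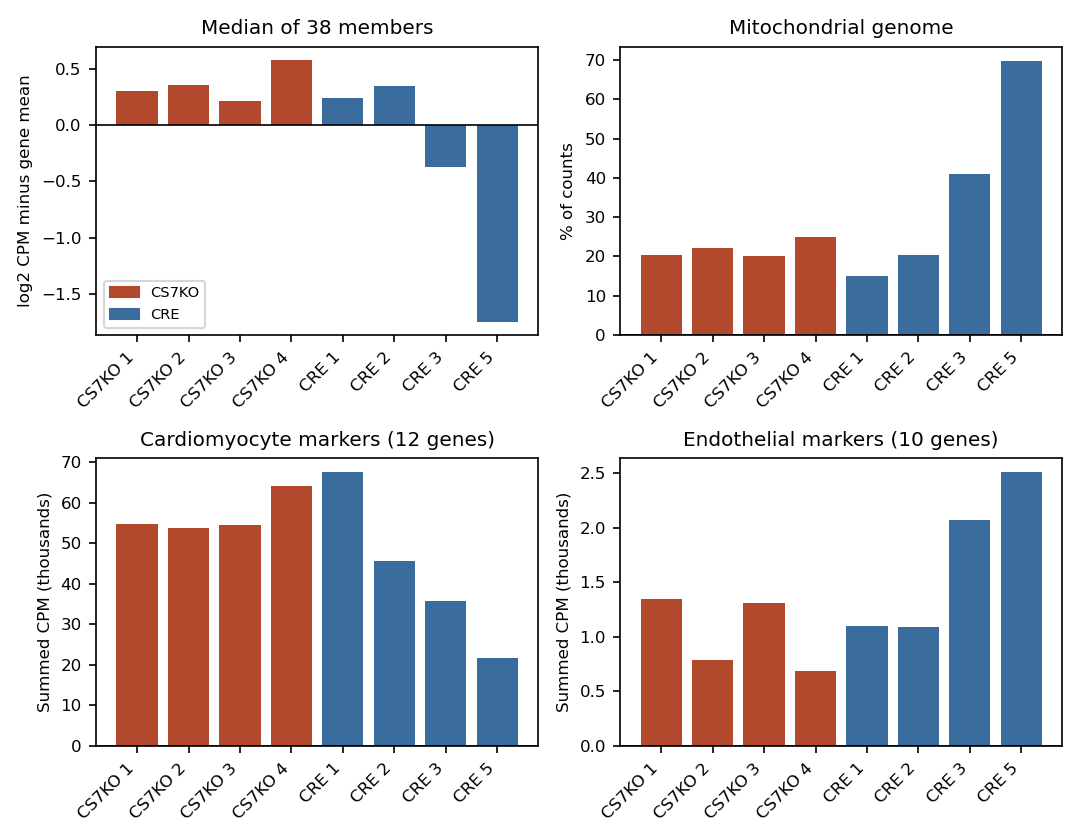
Bars give, for each library, the median of the 38 genes (log2 CPM minus gene mean), the percent of counts from the mitochondrial genome, and the summed CPM, in units of 1000, of 12 cardiomyocyte and 10 endothelial markers. CRE 5 has the lowest gene median (-1.75), the highest mitochondrial share (69.8%) and the lowest cardiomyocyte sum (21623 CPM).

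The 4 CS7KO libraries were close to each other. The coefficient of variation of CPM over them ran from 5.29% (Pdhb) to 30.3% (Bdh1), with a median of 13.2%. Over the 4 CRE libraries it ran from 25.8% (Dbt) to 87.7% (Sdhb), with a median of 52.8%, and it was larger in CRE for 38 of 38 genes. The share of all genes with the larger variation in CRE was not computed, so this is not shown to be particular to the 38. Between CRE 2 and CRE 5 alone the levels differed by between 1.52-fold (Pcx) and 13.6-fold (Bckdha), with a median of 4.03-fold. CRE 1 differed from CRE 2 in both directions, from 0.386 of its level for Pdha1 to 3.60 times its level for Sdhb, and lay above CRE 2 for 18 genes.

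Compared per length, as CPM per kilobase of the gene length in the table, the cytosolic malate dehydrogenase Mdh1 had the highest level, with a mean of 639 in CS7KO and 407 in CRE. Idh2, the NADP-linked mitochondrial isocitrate dehydrogenase, followed at 557 in CS7KO and 343 in CRE. Sdhd, Oxct1, Sdhb, Mdh2 and Ogdh came next in CS7KO, between 228 and 283, with overlapping CS7KO libraries. At the low end stood Mccc1, the biotin-carrying subunit of methylcrotonyl-CoA carboxylase, at 4.49 in CS7KO and 4.29 in CRE, and Pcx, pyruvate carboxylase, at 5.02 in CS7KO and 3.69 in CRE. TCA cycle genes, Oxct1 and Pdha1 filled the upper part of this order, and none of the 13 branched-chain and propionyl-CoA genes exceeded Ivd, with a mean of 34.7 in CS7KO and 22.6 in CRE.

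**Figure D4:**
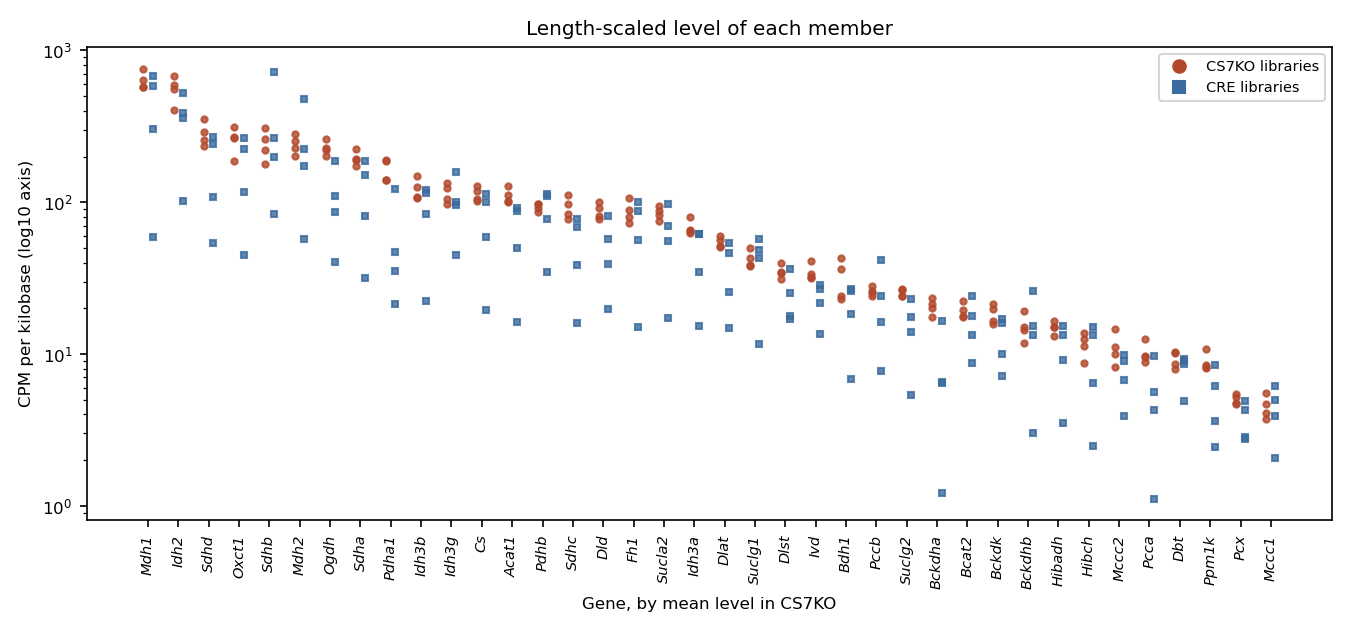
Level of each gene in each library as CPM per kilobase on a log10 axis, ordered by the CS7KO mean, with CS7KO as circles left of CRE as squares. Levels span from 639 (Mdh1) to 4.49 (Mccc1) in CS7KO means, and the CRE squares spread further than the CS7KO circles for each gene.

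In the TCA cycle 17 of 18 genes were higher in CS7KO and 1 lower as point estimates, 0 passed in edgeR, 4 had an unadjusted p under 0.05, and the median log2 fold change was 0.79. All 4 CS7KO libraries lay above all 4 CRE libraries for Idh3a, Ogdh, Suclg2 and Sdhc, and such separation was found for 6.24% of all genes.

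Ogdh encodes the decarboxylating subunit of the 2-oxoglutarate dehydrogenase complex, a control point of the cycle. It had 1245, 1201, 1106 and 1416 CPM in CS7KO 1 to 4, against 599.9, 1016, 471 and 221 CPM in CRE 1, 2, 3 and 5. The groups did not overlap, and CRE 2 came closest to the CS7KO libraries. The mean was 1242 ± 130 CPM in CS7KO and 577 ± 332 CPM in CRE (SD, n = 4 each), a log2 fold change of 1.23 (SE 0.44, edgeR adjusted p = 0.313). Without CRE 3 and CRE 5 it was 0.54.

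Dld, the dihydrolipoamide dehydrogenase shared by the pyruvate, 2-oxoglutarate and branched-chain complexes, had 300.4, 335, 285 and 371 CPM in CS7KO 1 to 4 and 209, 298, 143 and 73.3 CPM in CRE 1, 2, 3 and 5. CRE 2 fell inside the CS7KO range and the rest of CRE below it. The log2 fold change was 0.96 (SE 0.38, edgeR adjusted p = 0.352). Dlst, the succinyltransferase of the 2-oxoglutarate complex, had a smaller log2 fold change of 0.59, with CRE 2 at 349 CPM inside the CS7KO range of 299 to 379 CPM.

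The 4 subunits of succinate dehydrogenase, the cycle enzyme that is also complex II of the respiratory chain, did not have the same estimates. Sdhc, a membrane anchor, had 251, 317, 271 and 362 CPM in CS7KO 1 to 4 and 250.01, 223, 126 and 51.8 CPM in CRE 1, 2, 3 and 5, so that CRE 1 lay directly below the lowest CS7KO library. Its log2 fold change was 1.05 (SE 0.43, edgeR adjusted p = 0.363). Sdha, the flavoprotein, had 793, 787, 713 and 932 CPM in CS7KO 1 to 4 and 622, 767, 335 and 131 CPM in CRE 1, 2, 3 and 5. CRE 2 overlapped the CS7KO libraries and the log2 fold change was 1.00 (SE 0.47, edgeR adjusted p = 0.412). Sdhd, the other anchor, had a log2 fold change of 0.97. Sdhb, the iron-sulfur subunit, had 401, 586, 491 and 695 CPM in CS7KO 1 to 4 and 1603, 446, 595 and 186 CPM in CRE 1, 2, 3 and 5. CRE 1 held more than any other library and CRE 5 less, with CRE 2 and CRE 3 inside the CS7KO range, and the log2 fold change was -0.23 (SE 0.58, 95% interval -1.52 to 1.07). Without CRE 1 it was 0.47.

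Mdh1, which carries reducing equivalents in the malate-aspartate shuttle, had 1533, 1712, 1538 and 2024 CPM in CS7KO 1 to 4 and 1817, 1545, 812 and 158 CPM in CRE 1, 2, 3 and 5. CRE 1 and CRE 2 were inside the CS7KO range while CRE 5 had less than any other library, and the log2 fold change was 0.91 (SE 0.61, edgeR adjusted p = 0.576), or -0.10 without CRE 3 and CRE 5. Mdh2, the mitochondrial enzyme that closes the cycle, had a log2 fold change of 0.26, with CRE 1 at 1706 CPM above the CS7KO range of 718 to 1007 CPM, and without CRE 5 it was -0.16.

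Promoter sequence was read from RefSeq (GRCm38.p6), 250 bases before to 50 after each start, for the 34 of 38 genes that matched. Of 3 motifs searched on both strands, the palindromic CREB motif TGACGTCA was in promoters of 2 of 34 genes, Ogdh and Mdh2, and of 2.03% of all 27025 genes with a promoter. The sequences around these matches, shown for the genes of the highest and one of the lowest estimates in the cycle and with the motif in capitals, lie at chr11:6291520-6291579 and chr5:135778496-135778555, both on the plus strand.
Ogdh: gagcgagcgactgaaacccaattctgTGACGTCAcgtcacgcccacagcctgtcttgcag
Mdh2: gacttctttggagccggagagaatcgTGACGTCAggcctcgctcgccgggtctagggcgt

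The estrogen-related receptor motif TNAAGGTCA was found in 1 of the 34 genes, Sdhd, after its start, and in 1.43% of all genes. The NRF1 motif was in 0 of the 34 and in 1.07% of all genes. These matches describe letters in the windows, and no binding was measured. Ogdh and Mdh2, which share the CREB motif, had log2 fold changes of 1.23 and 0.26.

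Suclg2, the GDP-forming succinyl-CoA ligase subunit, had 123, 112, 112 and 125 CPM in CS7KO 1 to 4 and 80.9, 107, 64.5 and 24.9 CPM in CRE 1, 2, 3 and 5. The groups did not overlap, by a small margin at CRE 2, and the log2 fold change was 0.86 (SE 0.36, edgeR adjusted p = 0.372). A processed pseudogene, Gm15163, matches its transcript at 98.9% identity and held 3.4% as many counts, so reads could have been divided between them. Sucla2, the ADP-forming partner, had a log2 fold change of 0.63 and the common subunit Suclg1 one of 0.13, for which CRE 1 lay above the CS7KO range and CRE 2 and CRE 3 within it.

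Citrate synthase (Cs), the first enzyme of the cycle, had a log2 fold change of 0.80 with CRE 2 inside the CS7KO range of 587 to 737 CPM, and without CRE 5 it was 0.42. Idh3a, Idh3b and Idh3g, the catalytic and regulatory subunits of NAD-linked isocitrate dehydrogenase, had 0.80, 0.63 and 0.27. Of these Idh3a separated the groups, at 320.1, 329.7, 331 and 408 CPM in CS7KO 1 to 4 against 312, 311, 175 and 77.7 CPM in CRE 1, 2, 3 and 5, where CRE 1 and CRE 2 came close to the lowest CS7KO library. Idh2 had a log2 fold change of 0.78 and Fh1, fumarate hydratase, 0.58.

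Of the 4 pyruvate genes all were higher in CS7KO as point estimates, with a median log2 fold change of 0.64, 0 passed in edgeR and 1 had an unadjusted p under 0.05. Pdha1 (ENSMUSG00000031299, chromosome X), the catalytic subunit of pyruvate dehydrogenase on which its kinases act, had the highest estimate of the 38. It had 695, 521, 521 and 713 CPM in CS7KO 1 to 4, against 177, 457, 132 and 79.4 CPM in CRE 1, 2, 3 and 5. Every CS7KO library was above every CRE library, with CRE 2 nearest. The mean was 613 ± 106 CPM in CS7KO and 211 ± 169 CPM in CRE (SD, n = 4 each), a log2 fold change of 1.74 (SE 0.48, edgeR adjusted p = 0.291). Without CRE 3 and CRE 5 it was 0.88 (SE 0.52, edgeR adjusted p = 0.816).

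Pdhb (ENSMUSG00000021748, chromosome 14), the other subunit of the same enzyme, had 376, 335, 374 and 355 CPM in CS7KO 1 to 4 and 437, 421, 298 and 135 CPM in CRE 1, 2, 3 and 5. CRE 1 and CRE 2 lay above all CS7KO libraries and CRE 3 and CRE 5 below, and the log2 fold change was 0.24 (SE 0.36, 95% interval -0.57 to 1.04). Dlat, the acetyltransferase core of the complex, had 293, 248, 253 and 276 CPM in CS7KO 1 to 4 and 227, 261, 124 and 72.1 CPM in CRE 1, 2, 3 and 5, at a log2 fold change of 0.79 (SE 0.35, edgeR adjusted p = 0.397). CRE 2 was inside the CS7KO range. Pcx, which carboxylates pyruvate to oxaloacetate, had a log2 fold change of 0.49 from a low level of 22.1 to 25.9 CPM in CS7KO libraries and 13.1 to 23.2 CPM in CRE libraries. Lrfn4 overlaps Pcx on the opposite strand with 32.7% as many counts, and the labels do not state whether reads were counted by strand.

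Pdha1 and Pdhb encode subunits of 1 enzyme and had different estimates, so the 100 bases before each RefSeq start (GRCm38.p6) are shown, in order at chrX:160138431-160138530 and chr14:8172993-8173092, both on the minus strand. Neither promoter held any of the 3 motifs.
Pdha1: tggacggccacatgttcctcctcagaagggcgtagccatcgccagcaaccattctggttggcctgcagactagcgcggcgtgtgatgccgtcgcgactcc
Pdhb: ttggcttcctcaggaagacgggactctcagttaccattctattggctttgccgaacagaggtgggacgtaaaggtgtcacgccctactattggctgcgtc

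A ratio of 2 genes within a library is free of the scaling between libraries. Pcx over Pdha1 was 0.0373, 0.0424, 0.0434 and 0.0350 in CS7KO 1 to 4 and 0.131, 0.0446, 0.0991 and 0.170 in CRE 1, 2, 3 and 5. Each CS7KO library was below each CRE library, CRE 2 by a small margin, and the difference in mean log2 ratio was -1.34 (two-sided exact permutation p = 0.0286, the smallest that 70 assignments allow, and 0.171 after Benjamini-Hochberg adjustment over 6 pairs). Of the other pairs, Mdh1 over Mdh2 differed by 0.72 (exact permutation p = 0.0857), Sucla2 over Suclg2 by -0.19 (p = 0.114), Bckdk over Ppm1k by -0.31 (p = 0.543), Oxct1 over Bdh1 by 0.12 (p = 0.743) and Idh2 over Idh3a by 0.042 (p = 0.857), and the groups overlapped in all 5.

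Partner subunits of 1 enzyme were also set side by side after their values were seen, with no test. Pdha1 over Pdhb was 1.85, 1.56, 1.39 and 2.01 in CS7KO 1 to 4 and 0.404, 1.09, 0.444 and 0.589 in CRE 1, 2, 3 and 5. The counts of these subunits favoured Pdha1 in every CS7KO library and in CRE 2, and Pdhb in CRE 1, CRE 3 and CRE 5. Bckdha over Bckdhb was 1.58, 1.46, 1.49 and 1.28 in CS7KO 1 to 4 and 0.264, 1.31, 0.449 and 0.429 in CRE 1, 2, 3 and 5. Pcca over Pccb was 0.764, 0.696, 0.666 and 0.844 in CS7KO 1 to 4 and 0.193, 0.758, 0.645 and 0.273 in CRE 1, 2, 3 and 5. In these 3 pairs CRE 2 was near or inside the CS7KO range and CRE 1 was far below it. Sdha over Sdhb was 1.98, 1.34, 1.45 and 1.34 in CS7KO 1 to 4 and 0.388, 1.72, 0.564 and 0.703 in CRE 1, 2, 3 and 5, again with CRE 2 inside the CS7KO range and the other CRE libraries below it. Mccc1 over Mccc2 went the other way, at 1.95, 1.65, 1.46 and 1.47 in CS7KO 1 to 4 and 2.90, 2.45, 1.71 and 2.07 in CRE 1, 2, 3 and 5. For that pair CRE 1, CRE 2 and CRE 5 lay above the CS7KO range and CRE 3 inside it.

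**Figure D5:**
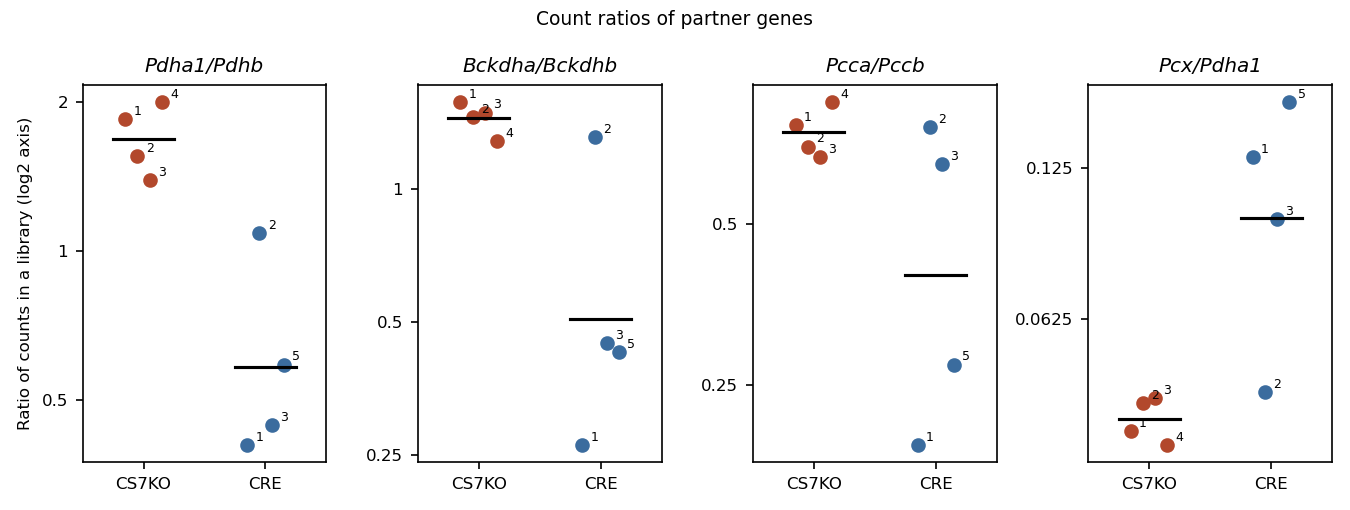
Ratio of counts within a library for Pdha1/Pdhb, Bckdha/Bckdhb, Pcca/Pccb and Pcx/Pdha1 on log2 axes, CS7KO left of CRE, with points numbered by library and a line at the geometric mean of each group. CS7KO libraries cluster tightly, and CRE 2 lies nearest to them in each panel.

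The 3 genes of ketone body oxidation were higher in CS7KO as point estimates, with a median log2 fold change of 0.88. None passed in edgeR and 0 had an unadjusted p under 0.05. Oxct1, the mitochondrial transferase that activates acetoacetate, had 974, 995, 692 and 1157 CPM in CS7KO 1 to 4 and 825, 974, 429.6 and 166 CPM in CRE 1, 2, 3 and 5. CRE 1 and CRE 2 were inside the CS7KO range, and the log2 fold change was 0.88 (SE 0.47, edgeR adjusted p = 0.467). Acat1, the thiolase that splits acetoacetyl-CoA and also acts in isoleucine breakdown, had 378, 383, 421 and 480.5 CPM in CS7KO 1 to 4 and 330.5, 347, 188 and 61.1 CPM in CRE 1, 2, 3 and 5. Its groups did not overlap, and the log2 fold change was 1.01 (SE 0.47, edgeR adjusted p = 0.413). Bdh1, the 3-hydroxybutyrate dehydrogenase, had 166, 89.1, 141 and 94.2 CPM in CS7KO 1 to 4 and 101, 104, 71.5 and 26.6 CPM in CRE 1, 2, 3 and 5. It was the most variable of the 38 genes among CS7KO hearts, CRE 1 and CRE 2 exceeded CS7KO 2 and CS7KO 4, and the log2 fold change was 0.78 (SE 0.39, edgeR adjusted p = 0.437).

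All 13 branched-chain and propionyl-CoA genes were higher in CS7KO as point estimates, from 0.13 to 1.60, with a median log2 fold change of 0.57. Of these 0 passed in edgeR and 1, Bckdha, had an unadjusted p under 0.05. Bckdha (ENSMUSG00000060376, chromosome 7), the decarboxylase alpha subunit of the branched-chain ketoacid dehydrogenase, had 33.4, 38.1, 40.6 and 44.7 CPM in CS7KO 1 to 4, against 12.4, 31.3, 12.3 and 2.30 CPM in CRE 1, 2, 3 and 5. The CRE 5 value rests on 19 counts, the lowest count of the 38 genes in any library, with a 95% exact Poisson interval of 1.38 to 3.59 CPM that covers counting error only. The groups did not overlap, and the log2 fold change was 1.60 (SE 0.57, edgeR adjusted p = 0.313). B3gnt8 overlaps it on the opposite strand with 17.7% as many counts.

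The beta subunit Bckdhb and the transacylase Dbt of the same complex had log2 fold changes of 0.15 and 0.23. Bckdhb had 21.2 to 34.8 CPM in CS7KO libraries, with CRE 1 above this range at 47.1 CPM and CRE 5 below it at 5.44 CPM. The inactivating kinase Bckdk had a log2 fold change of 0.62 and the activating phosphatase Ppm1k one of 0.79, with ranges of 58.4 to 78.7 and 49.0 to 64.7 CPM in CS7KO libraries against 26.6 to 63.3 and 14.6 to 50.9 CPM in CRE libraries. Bcat2, the mitochondrial aminotransferase of the first step, had 0.35.

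Ivd, isovaleryl-CoA dehydrogenase of leucine breakdown, had 175, 177, 186 and 226 CPM in CS7KO 1 to 4 and 119, 156, 148 and 74.6 CPM in CRE 1, 2, 3 and 5. The groups did not overlap and the log2 fold change was 0.62 (SE 0.30, edgeR adjusted p = 0.430). Mccc1, the next enzyme's biotin-carrying subunit, had 44.6, 51.0, 41.0 and 60.2 CPM in CS7KO 1 to 4 and 54.5, 67.8, 43.0 and 22.6 CPM in CRE 1, 2, 3 and 5. CRE 2 was the highest library, only CRE 5 lay below the CS7KO range, and the log2 fold change was 0.13 (SE 0.32, 95% interval -0.58 to 0.84). Mccc2, its partner, had 0.57. Hibch and Hibadh, enzymes of valine breakdown, had 0.54 and 0.65. Pcca and Pccb, the subunits of propionyl-CoA carboxylase, had 1.06 and 0.37, and Ggact overlaps Pcca on the opposite strand with 23.3% as many counts. Over all 38 genes, 8 had every CS7KO library above every CRE library (Idh3a, Ogdh, Suclg2, Sdhc, Pdha1, Acat1, Bckdha and Ivd), where 6.24% of all genes did. The opposite was found for 0 of the 38 and for 4.11% of all genes.

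By labelled sex, the 2 CS7KO and 2 CRE male hearts gave 25 of 38 genes above 0, with a median log2 fold change of 0.090 (0.15 over all genes). The 2 CS7KO and 2 CRE female hearts gave all 38 above 0, with a median of 1.26 (-0.086 over all genes). In neither sex did edgeR call any of the 38, where it called 0.0187% of all genes in each, and 0 male and 26 female estimates had an unadjusted p under 0.05, where 4.09% of all genes did in male and 15.8% in female hearts. The difference between the sexes was tested as an interaction, and 0 of 38 passed in edgeR, the smallest adjusted p being 0.667, where 0% of all genes passed. At an unadjusted p under 0.05 there were 7 of 38, where 7.08% of all genes were. DESeq2 called 1.22% of the 3593 genes it adjusted for the interaction. It called 0 of the 38, where any gene it left unadjusted counts as not called. The largest interaction was that of Mdh1, at 1.93 on the log2 scale. The female CRE hearts are CRE 3 and CRE 5, the libraries with the high mitochondrial share, so that sex and that share cannot be told apart.

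A further 57 genes of the same pathways, listed by function with earlier results of these data known, were all tested. Of these 42 were higher and 15 lower as point estimates, where 51.9% of all genes were higher. Their median log2 fold change was 0.33 (0.029 over all genes). In edgeR 0 passed (0.0375% of all genes) and 14 had an unadjusted p under 0.05 (12.6% of all genes). In DESeq2 5 passed (4.1% of the genes it adjusted). The 10 genes that carry pyruvate into mitochondria or control its dehydrogenase had 9 higher and 1 lower and a median of 0.64. The 26 genes of the cycle, its assembly, lipoylation, refilling and transamination had 19 higher and 7 lower and a median of 0.28. The 6 other ketone body genes had 4 higher and 2 lower and a median of 0.077, and the 15 branched-chain, propionyl-CoA and biotin genes had 10 higher and 5 lower and a median of 0.66.

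Of the 57, 9 had every CS7KO library above every CRE library (6.24% of all genes) and 1 had the opposite (4.11% of all genes). The 4 with the smallest p-values were among these, which their choice by p makes likely, so their separation is description only. Klf15, a transcription factor known to regulate branched-chain amino acid breakdown, had 60.4, 43.1, 62.6 and 46.2 CPM in CS7KO 1 to 4 and 23.0, 19.8, 18.1 and 11.98 CPM in CRE 1, 2, 3 and 5. All 4 CRE libraries, CRE 1 and CRE 2 included, lay well below the CS7KO libraries, and the log2 fold change was 1.56 (SE 0.27, edgeR adjusted p = 0.156, DESeq2 adjusted p = 0.000103). Pck2, the mitochondrial phosphoenolpyruvate carboxykinase that draws on oxaloacetate, was lower in CS7KO, with 10.5, 15.1, 14.4 and 11.3 CPM in CS7KO 1 to 4 and 37.4, 19.8, 40.9 and 42.8 CPM in CRE 1, 2, 3 and 5 (log2 fold change -1.43, SE 0.29, edgeR adjusted p = 0.243). Pdk1, a kinase that inactivates pyruvate dehydrogenase, had 305, 198, 225 and 234 CPM in CS7KO 1 to 4 and 125, 166, 76.7 and 50.8 CPM in CRE 1, 2, 3 and 5 (log2 fold change 1.32, SE 0.34, edgeR adjusted p = 0.280). Pdpr, the regulatory subunit of the phosphatase that reactivates that enzyme, had 67.4, 19.6, 30.3 and 32.3 CPM in CS7KO 1 to 4 and 1.72, 15.3, 10.9 and 6.17 CPM in CRE 1, 2, 3 and 5 (log2 fold change 2.11, SE 0.62, edgeR adjusted p = 0.291). Pdk1 and Pdpr were therefore both higher in CS7KO as point estimates. The phosphatase genes Pdp1 and Pdp2 had log2 fold changes of 0.0099 and 0.092, and the other kinase genes Pdk2, Pdk3 and Pdk4 had 0.72, 0.29 and 1.42. Pdk4 varied widely, with 2060, 149, 790 and 153 CPM in CS7KO 1 to 4 and 164, 464, 433 and 27.9 CPM in CRE 1, 2, 3 and 5 (SE 0.96, edgeR adjusted p = 0.582). For Pdk4, CS7KO 2 and CS7KO 4 lay below CRE 1, CRE 2 and CRE 3. What these estimates mean for the activity of the complex was not tested.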

How the data were processed

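RNA was extracted from whole hearts with Trizol and polyadenylated RNA was sequenced on Illumina machines by Novogene, per the labels. Raw, unscaled read counts for each gene were deposited by the authors in 1 table. Tools named, without roles, in the submitters' processing notes are HTSeq 0.6.1, TopHat2 2.0, Cufflinks 2.1.1 and CASAVA, with the builds mm10 and GRCm38.p6. Strand use and the treatment of reads matching several genes are not given in the sources used here. Of the 38 genes, 0 had table coordinates equal to the GRCm38 annotation GENCODE M21, and 1472 of 52073 genes (2.83%) did, so the build of the table is unsettled and only its chromosomes are given, while promoter coordinates are those of RefSeq.

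Genes were tested in R 4.3.3 with edgeR 4.0.16: filterByExpr on genotype (minimum count 10, minimum total 15), TMM scaling, and a robust quasi-likelihood F test with genotype and labelled sex, tested on simulated data. Benjamini-Hochberg adjustment ran over all 16002 genes tested, with a threshold of 0.05. Fold changes are CS7KO over CRE, CPM uses TMM-scaled library sizes, and log2 CPM has a prior count of 2. DESeq2 1.42.0 and limma 3.58.1 (voom) were alternatives, beside other scalings, filters and sets of libraries. The interaction with sex used a model of 4 groups of 2 libraries. Ratios (0.5 added to each count) were tested by exact permutation. A floor of 3 counts, the most that a count of 0 leaves possible, was worth 0.0643 to 0.363 CPM, for counting error only. In every pair of replicates the chi-square of counts reached at least 11.2 times its degrees of freedom, so none was a duplicate. Copies were sought with blastn 2.17.0 at 90% identity or more over at least 200 bases and 50% of the copy.

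The members, the lists and the tests were chosen with earlier results of these data known. Named genes were the 8 members with the smallest p, since none passed, and in each role the member with the highest level per kilobase and those with the largest and smallest fold change, plus the 4 further pathway genes with the smallest p. The subunit ratios were chosen after their values were seen, and other members are given by shorter values. A result that needs a withheld item is not reported here.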

Additional observations from a re-analysis of the deposited data

Results flagged for a closer look

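Of 88 groups of 4 libraries tested for a single outlying value by Dixon's criterion, 4 were flagged, where chance flags about 1 in 20. Idh3a was high in CS7KO 4, at 408 CPM, against 320.1 to 331 CPM in CS7KO 1 to 3. Ppm1k was also high in CS7KO 4, at 64.7 CPM, against 49.0 to 51.0 CPM in the other CS7KO libraries. The ratio of Bckdk to Ppm1k was high in CS7KO 2, at 1.48, against 1.19 to 1.22 in the other CS7KO libraries. Dbt was low in CRE 5, at 16.3 CPM, against 28.5 to 30.9 CPM in the other CRE libraries.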

How the results depend on the processing

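The 38 genes had 0 calls in edgeR under other scalings, a strict filter, no term for sex, protein-coding genes alone and every set of libraries tried, against 2 calls with DESeq2 (Ogdh, Pdha1) and 2 with no filter (Pdha1, Bckdha). The fit with no filter moved the median of all genes to 0.57, and the cause of the extra calls was not tested. The other pathway genes had 5 calls with DESeq2, where 4.1% of the genes it adjusted were called, and 4 with no filter, where 0.695% of all genes were. Over all genes the 6 calls became 503 with DESeq2, 338 with no filter, 0 with protein-coding genes alone, 3 without CRE 3 and CRE 5, 16 without CRE 1 and CRE 5, 3 in male and 3 in female hearts, and 3 to 14 when each library was left out in turn, with 14 without CRE 1. The median log2 fold change of the 38 (0.64) was 0.85 with limma-voom, 0.034 without CRE 3 and CRE 5, 0.46 without CRE 1 and CRE 5, 0.090 in males, 1.26 in females and 0.42 to 0.81 when each library was left out.

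Deviations of same-numbered libraries correlated at 0.042, -0.088 and 0.35 for numbers 1, 2 and 3. Only for number 3 were the libraries, CS7KO 3 and CRE 3, each other's best match. These correlations cannot settle whether the numbers pair the libraries. With the number as a replicate block (libraries 1 to 3), 0 of the 38 and 9 of all genes were called, 30 of the 38 were higher, the median was 0.32, and the sign turned for Idh3g (-0.071), Suclg1 (-0.29), Mdh2 (-0.20), Pdhb (-0.058), Bckdhb (-0.32), Mccc1 (-0.24) and Pccb (-0.0055).

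Several estimates turned sign under other settings. Without CRE 3 and CRE 5 these were Cs (-0.012), Idh3b (-0.056), Idh3g (-0.28), Suclg1 (-0.36), Sucla2 (-0.021), Sdhd (-0.023), Fh1 (-0.21), Mdh1 (-0.10), Mdh2 (-0.68), Pdhb (-0.32), Bcat2 (-0.23), Bckdhb (-0.64), Dbt (-0.0060), Mccc1 (-0.41), Hibch (-0.30), Pccb (-0.44) and the ratio Oxct1/Bdh1 (-0.14). In male hearts, which the fit without CRE 3 and CRE 5 also compares, they were Idh3b (-0.00029), Idh3g (-0.22), Suclg1 (-0.31), Fh1 (-0.16), Mdh1 (-0.051), Mdh2 (-0.63), Pdhb (-0.27), Bcat2 (-0.18), Bckdhb (-0.59), Mccc1 (-0.36), Hibch (-0.24) and Pccb (-0.39). Without CRE 1 and CRE 5 they were Suclg1 (-0.053), Sdhb (0.12) and Mccc1 (-0.11). Sdhb was 0.14 with limma-voom and 0.60 in female hearts. When each library was left out in turn, 28 of the 38 moved by over 1.5 times (Cs 0.42 to 1.04, Fh1 0.18 to 0.80, Idh3b 0.26 to 0.87, Sucla2 0.29 to 0.85 and Hibch 0.18 to 0.78 among them), and the estimates that turned ran as follows: Sdhb -0.63 to 0.47, Suclg1 -0.21 to 0.48, Bckdhb -0.27 to 0.56, Mccc1 -0.10 to 0.29, Mdh2 -0.16 to 0.73, Pdhb -0.025 to 0.39, the ratio Idh2/Idh3a -0.058 to 0.18 and the ratio Oxct1/Bdh1 -0.092 to 0.35. Estimates of the genes not named in these 2 paragraphs kept their direction under every setting tried. Depth limits the 4 genes with under 100 counts in CRE 5, Bckdha with 19 counts most.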
